A study of Mus musculus with 12 samples.

Results

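The ventral telencephalon of mouse embryos at E15 was compared with both pallial tissues of the same age, cortex and hippocampus. Each tissue was measured on 1 single-colour Agilent expression array, and these 3 arrays are 3 of the 12 samples of the study. A gene was counted as higher in the ventral telencephalon when the ventral array lay at least 1 log2 unit, a 2-fold difference, above both pallial arrays and its ventral spot was well above background. It was counted as lower when the ventral array lay at least 1 log2 unit below both pallial arrays and both pallial spots were well above background. Of 26876 genes tested, 1325 (4.93%) were higher and 599 (2.23%) were lower, and among the genes that carry a symbol the counts were 872 and 309 of 15973.

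The study measured neurons derived from mouse embryonic stem cells and set them beside embryonic tissue. The embryonic RNA came from cortex, hippocampus, ventral telencephalon and midbrain of Sv129s6 embryos of both sexes at E15, with 1 array per tissue. Cultures of male 129/Ola cells were measured at day 16 on 2 arrays for each of 4 groups. All 4 groups received the WNT inhibitor 53AH at 2.5 µM and the BMP inhibitor LDN193189 at 0.25 µM from day 0. WiBi_0-11, the isocortical protocol, kept the inhibitors until day 11 and WiBi_0-16 until day 16. CHIR_8-16, the hippocampal protocol, had the inhibitors until day 8 and then the WNT agonist CHIR at 3 µM until day 16. In CHIR_11-16 the agonist replaced the inhibitors on day 11 and stayed until day 16, and its dose is not given in the sources used here. Per the labels, RNA from 3 sets of experiments was combined in every sample, so that the spread between embryos is not known and no difference between the embryonic tissues has a replicate check or a p-value. The labels do not say where the ventral dissection ended. In whole tissue, fewer cells of a type and less RNA per cell cannot be told apart.

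The ventral telencephalon, or subpallium, is the floor of the embryonic forebrain and holds the ganglionic eminences. Its progenitors, patterned by sonic hedgehog from the ventral side and marked by GSX and DLX homeodomain factors, give rise to GABA-releasing neurons of the striatum, pallidum and basal forebrain, to interneurons that migrate into the cortex and to early oligodendrocyte precursors. The pallium above it expresses EMX, neurogenin and TBR factors and makes the glutamatergic neurons of cortex and hippocampus.

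Levels are given as the log2 of the processed signal minus the 75th percentile of that array, so that a level of 0 is as bright as that percentile, and levels of different probes cannot be compared. A fold difference is given against the nearer pallial array, the one closest to the ventral level. Where the dim side was not well above background the fold is a lower bound, taken against the lowest well-measured signal of that array where the probe itself was dimmer. All 4 embryonic arrays lay on slide 1 and held 59305 non-control spots with 0 saturated. The share of spots well above background was 59.06% on the ventral array, the lowest of the 4, against 66.78% for cortex, 65.08% for hippocampus and 70.53% for midbrain. The lowest signal called well above background was also higher on the ventral array (a level of -5.11) than on cortex (-6.00), hippocampus (-5.88) or midbrain (-6.25). Probes spotted several times on an array had a median SD over their spots of 0.067 to 0.088 on the 4 arrays, which is the technical spread within an array and not the spread between embryos.

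The tissue label was set beside markers of the medial ganglionic eminence and basal forebrain, of which Lhx8 and Nkx2-1 were high on the ventral array alone. The same ventral and pallial values entered the rule, so this describes the array and is no independent check of its label. Lhx8, a LIM homeodomain factor of basal forebrain cholinergic neurons, had a level of 2.90 on the ventral array and was not well above background on cortex (-8.13), hippocampus (-5.76) or midbrain (-8.47). It was at least 405-fold higher in the ventral telencephalon. Nkx2-1, the homeodomain factor that specifies the medial eminence, had a level of 0.54 on the ventral array, -6.19 on cortex, -5.58 on hippocampus and -8.31 on midbrain. That is 69.3-fold above hippocampus, where the level was close to the lowest signal called well above background (-5.88). Over the spots of the probe the SD was 0.10 on the ventral array, 0.36 on cortex and 0.31 on hippocampus. The Lhx8 probe lies at chr3:153969377-153969436 and the Nkx2-1 probe at chr12:57633119-57633178, both on the minus strand of mm9. Not all genes of this list followed: 8 of 24 measured members were higher, 1 was lower and 15 were neither, with a median difference of 0.54 log2 units from the pallial mean against -0.13 over all genes.

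**Figure D1:**
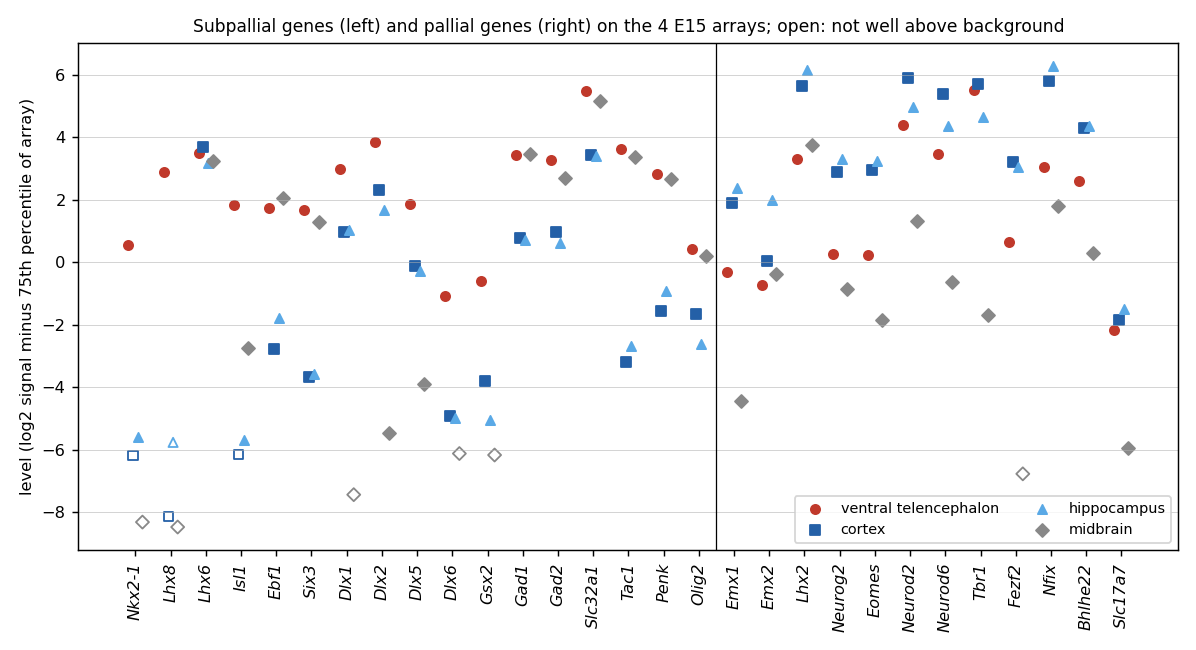
Levels (log2 signal minus the 75th percentile of the array) of 17 subpallial genes, left of the line, and 12 pallial genes, right of it, on the E15 ventral telencephalon, cortex, hippocampus and midbrain arrays, 1 array per tissue. Open symbols are not well above background. Lhx8, Isl1, Tac1 and Nkx2-1 stand farthest above both pallial arrays, while Lhx6 differs little between ventral telencephalon and pallium.

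A further 5 members of the medial list, known from tangentially migrating interneurons, were not higher on the ventral array. Lhx6, a factor of medial eminence interneurons, had levels of 3.48 on ventral telencephalon, 3.68 on cortex, 3.16 on hippocampus and 3.22 on midbrain, so that the ventral level fell between those of the pallial arrays. The other passing Lhx6 probe was 0.45 log2 units above the nearer pallial array and did not meet the rule. Sox6 (-0.89 on the ventral array, -1.22 on cortex and -1.04 on hippocampus), Maf (0.29, 1.01 and 0.11) and Satb1 (2.42, 3.18 and 2.66) were within 1 log2 unit of both pallial arrays. Cxcr4, the chemokine receptor of migrating interneurons, was the 1 lower member, at -0.99 against 0.27 and 1.44, which is 2.39-fold below cortex. On the caudal eminence list 0 of 11 measured members were higher and 1 was lower, Npas1, at 0.98 against 2.01 and 2.13. Members that were not counted could still differ from 1 pallial array. Prox1 and Calb2 differed by 2.34 and 1.73 log2 units from cortex and by -1.54 and -1.29 from hippocampus.

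Other members of the medial list were higher. The list does not separate migrating interneurons from other neurons, and its members are grouped here by their result. Sst, which encodes somatostatin, had a level of 5.39 on the ventral array, 2.61 on cortex and 2.07 on hippocampus, a 6.89-fold difference, and 4.79 on midbrain. Slc18a3, the vesicular acetylcholine transporter, was 7.29-fold higher. Chat, which makes acetylcholine, was not counted, with -2.12 on the ventral array, -1.63 on cortex and -1.82 on hippocampus. Gbx1 was 5.56-fold, Etv1 2.89-fold and Nxph1 2.04-fold higher.

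Transcription factors of subpallial progenitors formed the list with the highest median difference, 2.55 log2 units, with 17 of 23 measured members higher and 0 lower. All 4 Dlx genes on the list were higher. Dlx1 had levels of 2.98 on ventral telencephalon, 0.97 on cortex and 1.03 on hippocampus, and Dlx2 had 3.86, 2.29 and 1.68. Dlx5 was at 1.88 on the ventral array against -0.11 and -0.27. Their folds were 3.87, 2.96 and 3.95, smaller than that of Dlx6, which was 14.4-fold higher at -1.07 against -4.92 and -5.00. All 4 were well above background on both pallial arrays. On midbrain, Dlx1 (-7.43) and Dlx6 (-6.12) were not well above background.

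Gsx2, which acts upstream of the Dlx genes in the lateral eminence, was 9.28-fold higher, with a ventral level of -0.59 against -3.80 on cortex and -5.04 on hippocampus. Gsx1 was 7.74-fold, Vax1 6.41-fold and Sp9 3.59-fold higher. Six3, a homeodomain factor of the lateral eminence and striatum, was 37.8-fold higher, and Zfhx3 30.2-fold. Zfhx3 was also high on midbrain, at 2.91 against 1.52 on the ventral array, as were Pbx3 (4.72 against 4.40) and Meis1 (2.98 against 2.38). Sp8 (1.66, -0.13 and 0.85) lay above both pallial arrays by less than 1 log2 unit against the nearer one.

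All 6 genes measured for GABA synthesis, transport and breakdown were higher. Gad1 and Gad2 encode the enzymes that make GABA. Gad1 had a level of 3.44 on the ventral array, 0.76 on cortex and 0.70 on hippocampus, a 6.40-fold difference. Gad2 had 3.26, 0.96 and 0.60, a 4.91-fold difference. Slc32a1, the vesicular GABA transporter, was 4.18-fold higher, the membrane transporter Slc6a11 was 3.72-fold higher, and Abat, which breaks GABA down, 3.14-fold. Midbrain had levels close to those of the ventral telencephalon for Gad1 (3.46), Slc32a1 (5.16) and Abat (4.07).

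Striatal projection neuron genes were also mostly higher, with 18 of 27 measured members higher, 1 lower and a median difference of 1.60. Isl1, a LIM homeodomain factor of direct-pathway striatal neurons, had a level of 1.84 on the ventral array, -6.16 on cortex, where it was not well above background, -5.70 on hippocampus and -2.74 on midbrain. It was 186-fold above hippocampus, where the level was again close to the lowest signal called well above background (-5.88). The SD over the spots of the Isl1 probe was 0.11 on the ventral array, 0.39 on cortex and 0.28 on hippocampus. Ebf1 was 11.6-fold, Ikzf1 at least 20.4-fold and Foxp2 5.63-fold higher. Foxp1, at 4.67 against 3.66 and 3.40, was 2.01-fold higher, just past the threshold. The other passing probe of Ikzf1 differed by only 0.51 log2 units from the nearer pallial array, and that of Foxp2 by 1.74. Of 4 other Foxp1 probes 1 met the rule, with differences from 0.0 to 1.1.

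Among the signalling molecules of striatal neurons the peptide precursors differed most. Tac1, the substance P precursor, had a level of 3.62 on the ventral array, -3.18 on cortex and -2.67 on hippocampus. It was 78.1-fold higher, the largest fold of any symbol-bearing gene measured well above background on all 3 arrays. Penk, the enkephalin precursor, was 13.2-fold higher (2.82 against -1.56 and -0.91), and Pdyn, the dynorphin precursor, 12.8-fold higher (1.01 against -3.20 and -2.67). On midbrain all 3 had levels close to those of the ventral telencephalon, at 3.36, 2.67 and 1.08.

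The dopamine receptor Drd2 was 2.89-fold higher, at a dim -3.67 against -5.20 and -5.50, whereas Drd1 (-1.14, -1.73 and -4.07) was not counted because cortex lay within 1 log2 unit. Ppp1r1b, which encodes DARPP-32, had 2.81 on the ventral array and 2.59 on cortex and was not counted either. The 1 lower member was Crym, also on the pallial list, at 1.26 against 3.56 and 5.80. Over the whole list of neuropeptides and their receptors, 10 of 20 measured members were higher and 2 lower, with Crh (14.0-fold), Cartpt (4.87-fold) and the substance P receptor Tacr1 (3.82-fold) beside those above.

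Lists of signalling pathways that pattern the telencephalon had some members counted and more that were not. On the retinoid list 25.0% and on the FGF and EGF list 23.5% of measured members were higher, against 4.93% of all genes. On the hedgehog list 33.3% were lower, against 2.23%. Of 16 retinoid genes measured, 4 were higher and 1 lower. Rarb, a retinoic acid receptor of the striatum, was 29.7-fold higher (2.27 against -2.98 and -2.63). Aldh1a3, the enzyme that makes retinoic acid in the lateral eminence, was 21.1-fold higher (-0.33 against -6.93 and -4.73). The cytosolic retinoic acid binding protein Crabp1 was 3.35-fold higher, and Rxra was 2.10-fold lower.

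Of 12 hedgehog genes measured, 1 was higher and 4 were lower. Shh, the ligand, was at least 5.19-fold higher, from a dim ventral level of -3.50 with cortex (-8.11) and hippocampus (-7.86) not well above background. The transcriptional effectors Gli3 and Gli2 were lower, Gli3 at 1.20 against 2.47 and 2.44, and so were the co-receptors Gas1, by 3.09-fold, and Cdon, by 2.76-fold. The pathway targets Ptch1 (-0.83, -1.75 and -2.13) and Gli1 (-0.28, -0.43 and 0.27) were not counted.

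Of 17 FGF and EGF pathway genes, 4 were higher and 1, Fgfr1, was lower. They were Fgf15 (14.7-fold), the EGF receptor ligand Tgfa (3.44-fold), Etv1 (2.89-fold) and the receptor Egfr (2.81-fold; -0.22 against -1.72 and -2.62). Among 36 axon guidance genes 5 were higher, among them the receptor Robo3 (-2.45 against -6.77 and -7.11, neither well above background) and netrin-1, Ntn1 (4.92-fold; 1.38 against -3.87 and -0.92), and 1 was lower, the semaphorin receptor Nrp1 (3.98-fold; -0.96 against 1.03 and 2.34).

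Genes of the oligodendrocyte lineage were higher for 5 of 10 measured members and lower for 0. Olig1 and Olig2, the bHLH factors of the lineage that ventral progenitors also use, were 5.30-fold and 4.23-fold higher. Gpr17, a receptor of committed precursors, was 4.62-fold higher (1.98 against -0.23 and -1.03) and Pdgfra, the growth factor receptor of early precursors, 2.29-fold. The myelin gene Mbp (2.52, 1.66 and 1.5) was not counted.

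Pallial progenitor factors were the group that was lower in the ventral telencephalon, with 13 of 24 measured members lower, 1 higher and a median difference of -1.68. Eomes, the T-box factor of pallial intermediate progenitors, had levels of 0.22 on ventral telencephalon, 2.96 on cortex and 3.23 on hippocampus, a 6.67-fold difference. Neurog2, the pallial proneural factor, had 0.27, 2.88 and 3.31, a 6.09-fold difference. Emx1 was 4.65-fold lower (-0.32 against 1.90 and 2.38) and Lhx2 5.10-fold (3.30 against 5.65 and 6.14). Dmrt3 was at least 7.48-fold lower, Tfap2c 4.12-fold and Dmrta2 3.46-fold. Emx2 was not counted, since its ventral level of -0.73 was within 1 log2 unit of cortex (0.05) though not of hippocampus (1.99), and Pax6 (-1.10, -0.38 and 0.26) was not counted either.

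The 1 higher member of the pallial progenitor list was Fezf1, a zinc finger factor also on the hypothalamic list, with -0.33 on the ventral array and no other array well above background, at least a 46.8-fold difference. Fezf2, its relative in deep-layer cortical neurons, went the other way and was 5.28-fold lower, at 0.63 against 3.19 and 3.03.

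Fewer genes of postmitotic pallial neurons were counted than of pallial progenitors: 9 of 36 were lower and 2 higher, with a median of -0.32. The nuclear factor I genes were lower, Nfix by 6.75-fold (3.05 against 5.80 and 6.28), Nfib by 2.68-fold and Nfia by 2.26-fold. Bhlhe22 was 3.27-fold lower (2.58 against 4.29 and 4.36), Cntn2 4.24-fold and Zbtb18 2.30-fold. Tbr1, a T-box factor of early cortical neurons, was not counted, with 5.50 on the ventral array, 5.69 on cortex and 4.64 on hippocampus, and its level on midbrain was -1.69. Neurod2 (4.40, 5.89 and 4.97) and Neurod6 (3.47, 5.37 and 4.36) were below both pallial arrays but within 1 log2 unit of hippocampus. The vesicular glutamate transporter Slc17a7 was dim on all 3 arrays (-2.18, -1.84 and -1.48).

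**Figure D2:**
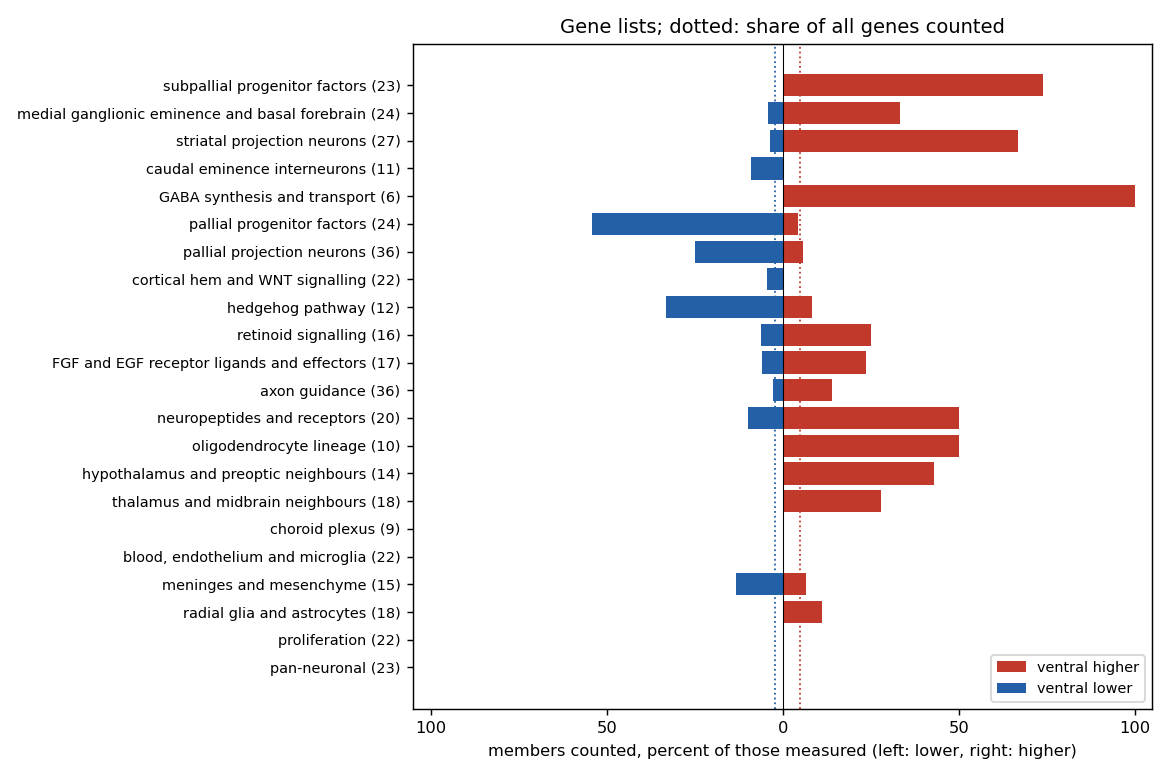
Percent of measured members of each gene list counted as higher (red, right) or lower (blue, left) on the E15 ventral array than on both pallial arrays; the number measured is in brackets and the dotted lines mark the shares of all 26876 genes, 4.93% and 2.23%. All 6 GABA genes were higher, 17 of 23 subpallial progenitor factors were higher, and 13 of 24 pallial progenitor factors were lower.

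The 22 cortical hem and WNT genes held 1 lower gene, Rspo3 (-0.14 against 1.97 and 2.51), and 0 higher, with a median of -0.87. Here hippocampus stood apart from both other arrays: the WNT ligand Wnt8b had 1.04 on hippocampus against -4.58 on ventral telencephalon, while on cortex it was not well above background.

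Few genes of lists of general cell properties were counted. Of 22 proliferation genes and 23 pan-neuronal genes 0 were counted in either direction, with medians of -0.48 and 0.34. Mki67 had 3.53 on ventral telencephalon, 3.54 on cortex and 3.86 on hippocampus, and Tubb3 had 6.67, 7.08 and 6.66. Of 22 genes of blood, endothelium and microglia and of 9 choroid plexus genes, 0 were counted. The choroid plexus transcript Ttr had 1.24 on the ventral array, -4.10 on cortex and 4.83 on hippocampus. Of 18 radial glia and astrocyte genes 2 were higher and 0 lower, with a median of -0.26. They were the astrocyte genes Aldh1l1 (2.74-fold; 3.80 against 2.34 and 1.34) and the water channel Aqp4 (2.28-fold; -2.12 against -3.35 and -3.31), and 1 was higher after normexp, in the authors' deposited series table or with the mean of the probes. The meningeal list had 2 lower members, Dcn and Lum, and 1 higher.

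Markers of neighbouring regions were among the higher genes. Of 14 measured hypothalamic and preoptic genes 6 were higher and 0 lower, with ventral levels from -4.70 (Sim1) to -0.33 (Fezf1). Nkx2-4 (-4.59) and Foxb1 (-2.96) were well above background on the ventral array and on neither pallial array. Rax was not well above background on the ventral array. Of 18 thalamic and midbrain genes 5 were higher: Gbx2 (at least 44.7-fold, -0.40), Irx1, Irx2, Foxa1 and Dmbx1. Gbx2 is also on the subpallial progenitor list, and its midbrain level (-1.55) was below its ventral level. Irx1, Irx2, Foxa1 and Dmbx1 had levels of -1.72, -4.81, -4.21 and -4.12 on the ventral array against 3.84, 2.54, 1.26 and 1.5 on midbrain. After normexp background correction 3 hypothalamic and 2 thalamic and midbrain genes were higher, the latter with a median of 0.07, and 3 thalamic and midbrain genes were higher in the authors' deposited series table. En1, Pax7 and Foxa2 did not pass the filter on dim probes. How far tissue from outside the telencephalon contributed to the counted genes was not tested.

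For all counted genes the ventral level was also set beside midbrain. The rule had already chosen these genes by their ventral level, so a lean to the counted side is partly built in. The shares over all genes are not given here. Of the 1325 higher genes, 438 were also at least 1 log2 unit above midbrain, 735 were within 1 unit of it, and in 150 midbrain was at least 1 unit above the ventral array. Of the 599 lower genes, 234 were also at least 1 unit below midbrain, 314 within 1 unit, and in 51 midbrain was lower still.

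**Figure D3:**
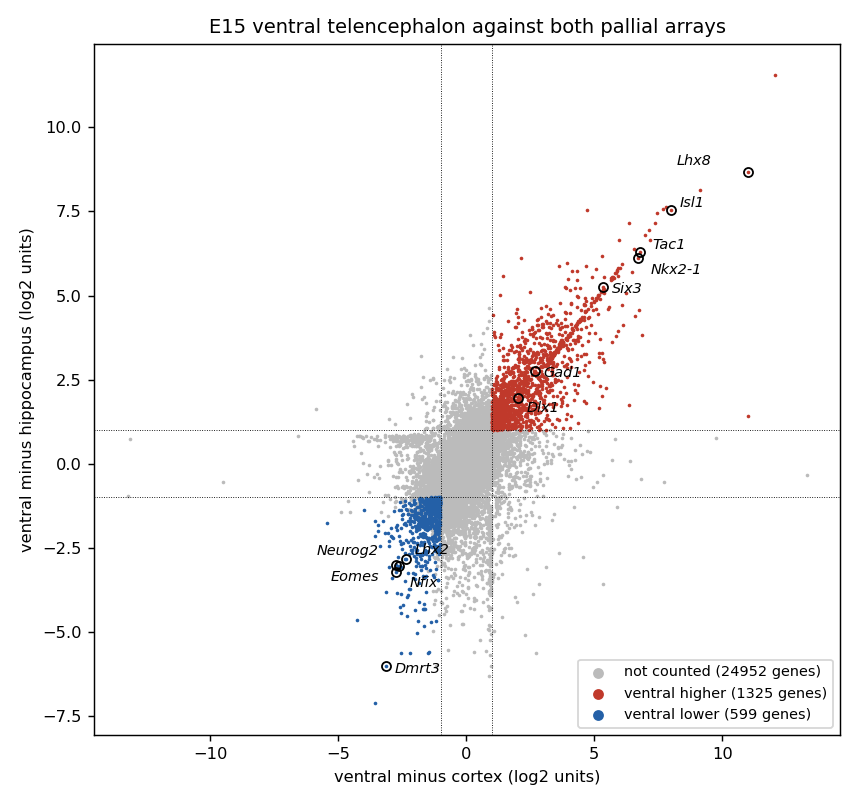
Difference of the E15 ventral array from cortex (horizontal) and from hippocampus (vertical), in log2 units, for 26876 genes with 1 array per tissue. Red points are the 1325 higher genes, blue points the 599 lower genes, dotted lines mark 1 log2 unit, and circles mark named genes; the higher side reaches farther from 0 than the lower side.

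The differences upward were larger than those downward. Among genes well above background on all 3 arrays, 782 were higher and 227 lower, and at 4-fold (2 log2 units) or more the counts were 206 and 24. At least 3 log2 units separated 55 higher genes and 1 lower gene, Dct. Of the 1325 higher genes, 402 were well above background on neither pallial array, and 372 of the 599 lower genes were not well above background on the ventral array, on which a spot had to be brighter to count as measured. With dim values set to the lowest well-measured signal, 1300 genes were higher and 273 lower. The split of counted genes was 68.9% higher as reported, 82.6% with dim values so set, 80.6% in the authors' deposited series table and 79.2% after normexp background correction. It was nearer to even at a threshold of 0.5 log2 units (51.7% higher) and against cortex alone (52.8%), and against hippocampus alone more genes were lower than higher (49.2% higher).

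The 15 largest higher genes with a symbol were led by Lhx8, and in 9 of them neither pallial array was well above background. Several of these are not known as brain genes: Olfr558, an olfactory receptor gene, had -2.36 on the ventral array, -8.30 on cortex, -8.18 on hippocampus and -8.46 on midbrain, at least an 11.5-fold difference. Kap, at -0.66 on the ventral array, was at least 37.1-fold higher, and Rpl10l and Gpr174 at least 13.2-fold and 12.7-fold. What these dim probes detect was not tested. Lbhd2 (45.9-fold, 0.12 against -5.65 and -5.40) was measured on all arrays. Among the lower genes Dct, dopachrome tautomerase, led those measured on both sides, at -1.26 against 1.75 and 1.82, an 8.07-fold difference, and its other probe differed by -3.15 log2 units. It was followed there by Nfix, Eomes, Neurog2, Cldn3 (5.78-fold), Myl10 (5.47-fold), Fezf2 and Smad6 (5.25-fold).

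Most calls rested on 1 probe: another passing probe was present for 267 of the 1325 higher and 133 of the 599 lower genes. For these genes the other probes were compared. Of 368 other probes of higher genes, 280 were on the same side of both pallial arrays and 186 (50.5%) met the rule themselves, against 4.81% of all 11823 other probes. Of 211 other probes of lower genes, 165 were on the same side and 70 (33.2%) met the rule, against 2.89%. Genes next to the threshold were Mab21l1 (-1.21 against -4.04 and -2.21), Spx and Ttll2 just inside and Pitpnm1 (4.34 against 3.34 and 2.65), Prrt2 and Tex15 just outside on the higher side. On the lower side Cttnbp2, Diaph3 and Lce1b were just inside and Cryab, Fzd1 and Sox3 just outside.

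Promoters are shown for 3 higher genes whose function carries the contrast, a striatal peptide, a striatal factor and a GABA enzyme, and for 1 lower gene, Nfix, at 1 of its start sites. They are the 250 bases before the annotated start from RefSeq on GRCm38.p6, written 5′ to 3′ on the strand of the gene. Capitals mark matches on either strand to 4 motifs. TAATTA is a homeodomain core such as DLX factors bind, and CAGCTG is an E-box, the kind of site that bHLH factors bind. CAGATG is an E-box of the kind bound by neurogenin factors, and so is the related CATATG, which none of these windows held. Each of the 4 reads differently from the others, so that no match counts under more than 1 of them.
Tac1 (chr6:7554811-7555060, plus strand): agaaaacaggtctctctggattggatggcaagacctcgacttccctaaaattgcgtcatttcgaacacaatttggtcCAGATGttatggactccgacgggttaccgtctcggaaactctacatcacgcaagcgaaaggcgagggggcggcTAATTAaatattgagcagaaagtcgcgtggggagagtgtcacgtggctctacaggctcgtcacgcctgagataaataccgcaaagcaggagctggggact
Isl1 (chr13:116309689-116309938, minus strand): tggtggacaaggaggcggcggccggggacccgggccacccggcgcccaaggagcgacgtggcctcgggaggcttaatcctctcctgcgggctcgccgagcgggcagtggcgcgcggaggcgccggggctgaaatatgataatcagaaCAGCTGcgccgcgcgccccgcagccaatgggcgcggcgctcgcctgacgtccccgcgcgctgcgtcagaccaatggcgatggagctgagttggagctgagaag
Gad2 (chr2:22622077-22622326, plus strand): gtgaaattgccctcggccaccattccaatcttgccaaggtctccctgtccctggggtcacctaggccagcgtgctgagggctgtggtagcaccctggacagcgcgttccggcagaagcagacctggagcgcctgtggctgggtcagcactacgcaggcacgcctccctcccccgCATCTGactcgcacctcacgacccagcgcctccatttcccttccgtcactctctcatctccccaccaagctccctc
Nfix (chr8:84780083-84780332, minus strand): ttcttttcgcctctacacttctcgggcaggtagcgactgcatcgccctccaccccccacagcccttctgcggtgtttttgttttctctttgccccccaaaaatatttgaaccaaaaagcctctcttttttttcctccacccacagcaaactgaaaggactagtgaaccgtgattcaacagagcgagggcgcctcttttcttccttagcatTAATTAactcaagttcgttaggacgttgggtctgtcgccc

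In these windows Tac1 held the E-box CAGATG 173 bases before the start and the homeodomain core 100 bases before it. The Isl1 window held CAGCTG at 103 bases, the Gad2 window CAGATG at 76, read on the other strand, and the Nfix window the homeodomain core at 40. The table holds 4 start sites of Nfix, and the one shown is the only one with the homeodomain core. Of the others, 1 held CAGCTG at 104 bases, 1 held CAGATG at 34 and 1 held none of the motifs. Shares were counted in windows of 300 bases, from 250 before to 50 after the start. TAATTA was in 4.8% of 941 promoters of higher genes and 4.8% of 311 promoters of lower genes, against 3.4% of the promoters of all genes tested and 5.3% of all 32851 promoters of the table. CAGCTG was in 18.6%, 18.3%, 16.1% and 16.3% in the same order. CAGATG was in 14.1% of promoters of higher genes and 19.9% of those of lower genes, against 13.3% and 17.2%. CATATG was in 2.2%, 3.2%, 2.3% and 3.9%. Promoters were matched for 729 of the 1325 higher and 262 of the 599 lower genes.

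The genes that separated ventral telencephalon from pallium were then followed in the cultures, whose arrays the rule had not used. The comparison was CHIR_8-16, the hippocampal protocol, against WiBi_0-11, the isocortical one, with 2 arrays in each group and limma fitted over all 8 culture arrays. Nothing in the labels says that the 2 samples of a group were separate cultures beyond the pooling, so that p-values measure the spread between these samples. Of the 1325 higher genes 973 were tested: 647 had a lower and 326 a higher mean in CHIR_8-16, with a median difference of -0.30 log2 units (-0.38 on slide 2 and -0.23 on slide 3) against 0.06 over all 25538 genes. A lower mean was thus found for 66.5% of these genes, against 43.7% of all genes tested. Of the 599 lower genes 466 were tested, and 359 of them (77.0%, against 56.3% of all genes) had a higher mean in CHIR_8-16, with a median of 0.34 (0.43 and 0.28).

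Few of these differences passed the test. Without a block 3 of 25538 genes were lower in CHIR_8-16 (0.0117%) and 0 higher at a Benjamini-Hochberg adjusted p under 0.05 in limma, although 2450 had an unadjusted p under 0.05. One of the 3 was a ventral-higher gene, Egfr, which encodes the EGF receptor of late ventral progenitors. Its levels were 2.34 and 2.01 on the WiBi_0-11 arrays and -1.58 and -1.21 on the CHIR_8-16 arrays, with no overlap. The difference was -3.57 (SE 0.22), an 11.8-fold lower level, with a limma adjusted p of 0.037. The fit without a block called 0 genes when any 1 of the 4 arrays compared was left out, when only these 4 arrays entered, with the mean of the probes of a gene, or with no filter on dim probes.

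Slide 2 carried replicate 1 and slide 3 carried replicate 2 of every group, and with this replicate block 57 genes were lower (0.223%) and 20 higher (0.0783%). Of the 973 ventral-higher genes tested, 20 (2.06%) were lower and 1, Slc35d3, was higher. Of the 466 ventral-lower genes, 5 (1.07%) were higher and 1, Tac2, was lower. With either WiBi_0-11 array left out the block called 0 genes, and with CHIR_8-16 replicate 1 or 2 left out 110 and 85, of which 34 and 20 were among the 77 genes called on all arrays.

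The ventral-higher genes called with the block included 4 of the 5 oligodendrocyte lineage genes that were higher in the embryo. Of all ventral-higher genes tested 2.06% were called lower, and of all genes 0.223%. Olig1 and Olig2 are also on the subpallial progenitor list and Sox8 on the striatal list, so the 4 genes are not particular to the lineage list. Olig1 had 2.31 and 2.23 on WiBi_0-11 and -3.80 and -1.83 on CHIR_8-16, a difference of -5.09 (SE 0.47, limma adjusted p 0.036 with the block and 0.21 without). Olig2 had 1.09 and 1.03 against -2.67 and -1.83 (adjusted p 0.039 with the block and 0.21 without, in limma). Gpr17 was at least 6.64-fold lower in CHIR_8-16, where neither array was well above background, and Sox8 was 5.74-fold lower. Their levels in WiBi_0-16 were closer to WiBi_0-11 than to CHIR_8-16, as for Olig1 (1.34 and 2.65), and the arrays of each of these genes in CHIR_8-16 did not overlap with those in WiBi_0-11.

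Gad1 also fell with the block, from 1.12 and 1.59 to -1.25 and -1.40, 6.43-fold (limma adjusted p 0.049 with the block and 0.21 without). The others included Ddc, the enzyme that makes dopamine and serotonin from their precursors (3.84-fold), the myelin glycoprotein gene Omg (5.34-fold), the chemokine gene Cxcl14 (7.66-fold) and the muscarinic receptor gene Chrm1 (at least 2.01-fold). Neurog2 was the ventral-lower gene with the largest called rise, from -0.39 and -1.15 to 2.31 and 2.44, an 8.83-fold difference (limma adjusted p 0.025 with the block and 0.17 without). Otx1, a forebrain homeodomain gene, was 4.48-fold higher in CHIR_8-16, and in the embryo 4.80-fold lower in ventral telencephalon.

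The Dlx genes and Gsx2 did not pass the test in either fit. Dlx2 had 2.72 and 3.90 on WiBi_0-11 and 0.52 and -0.67 on CHIR_8-16, a difference of -3.38 (SE 0.63; limma adjusted p 0.24, and 0.083 with the block). Dlx1 (-3.44, SE 0.84, limma adjusted p 0.33, and 0.12 with the block) and Gsx2 (-2.98, SE 0.60, limma adjusted p 0.25, and 0.10 with the block) were similar, and for all 3 the CHIR_8-16 arrays lay below those of WiBi_0-11. Dlx5 differed by -2.44 (SE 0.78, limma adjusted p 0.44, and 0.18 with the block). Dlx6 had -4.21 and -2.79 against -3.90 and -4.0, with overlapping groups and opposite signs on the slides (0.31 and -1.20). Of the genes with the largest folds in the embryo, some were dim in both culture groups: Lhx8 was well above background on 0 of these arrays, Isl1 had -4.22 and -3.22 against -3.37 and -4.92, and Tac1 had -3.55 and -2.77 against -3.83 and -2.10. Others were not. Fezf1 had 0.39 and 1.83 against -0.02 and 1.19, a difference of -0.52 (SE 0.81, limma adjusted p 0.95, and 0.16 with the block). Gbx2 had -4.63 and -5.46 against -2.74 and -0.89, a difference of 3.22 (SE 0.66, limma adjusted p 0.26, and 0.10 with the block). Eomes, lower in ventral telencephalon, had 3.19 and 2.0 against 3.84 and 2.61, a difference of 0.63 (SE 0.63, limma adjusted p 0.87; SE 0.17 and adjusted p 0.13 with the block). Its groups overlapped, while the difference was 0.65 on slide 2 and 0.60 on slide 3.

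**Figure D4:**
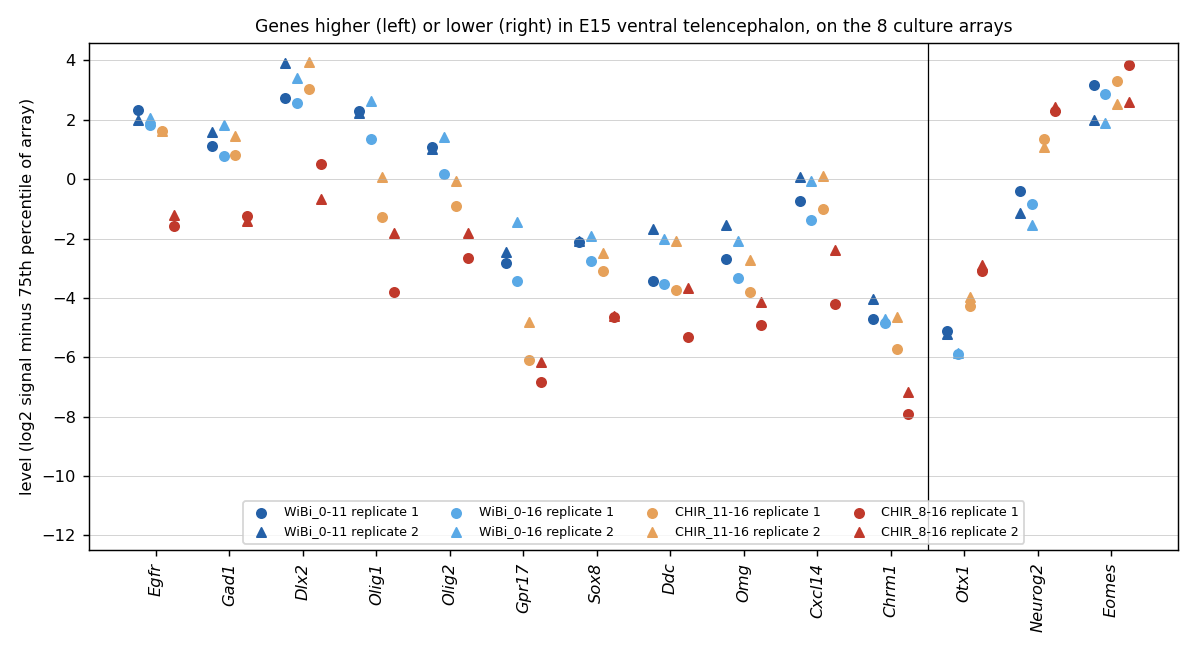
Levels (log2 signal minus the 75th percentile of the array) on the 8 culture arrays of 11 genes higher in E15 ventral telencephalon, left of the line, and 3 lower ones, right of it; colours are the 4 culture groups and symbols the replicates, 2 per group. Both CHIR_8-16 arrays lie below both WiBi_0-11 arrays for Egfr, Gad1, Dlx2, Olig1 and Olig2 and above them for Otx1 and Neurog2, while Eomes overlaps.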

How the data were processed

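The 3 embryonic arrays compared, the midbrain array and 8 culture arrays were single-colour Agilent arrays of Cy3-labelled RNA. Per the file headers, the spot intensity in each file is the output of Agilent Feature Extraction 10.7.3.1 and includes a background-subtracted processed signal, with probes placed on mm9. The submitters' processing notes name Agilent Feature Extraction 9.1 and limma. The series table deposited by the authors holds log2 values (each of its 12 columns correlated at 0.9889 to 0.9939 with the processed signal of its array) and served as an alternative; how the authors scaled it is not given in the sources used here.

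Spots marked as outliers were dropped, and log2 processed signals minus the 75th percentile of each array were averaged over the spots of a probe. Probes had to be well above background on at least 1 of the 3 arrays (38699 of 55681 passed), and the brightest probe stood for a gene. Names came from transcript accessions (28026 and 41 probes), current (1950) or older (362) symbols, or the name in the file (25302). The embryonic comparison has no test. The cultures (25538 genes) were fitted with limma 3.58.1 in R 4.3.3 (lmFit and eBayes, 1 mean per group, Benjamini-Hochberg adjusted, 2-sided); figures used matplotlib 3.10.9 in Python 3.11.15. Both steps were tested on simulated data. For the culture fit the simulated noise had the same SD in every gene and no slide effect, so the sharing of slides was not simulated. Same-numbered culture replicates shared a slide, and their deviations from the group means correlated at 0.579 to 0.667 over 6 pairs of groups. Only the fit with the replicate block treated them as paired by slide, and the fit without a block ignored this pairing.

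Genes named are, each way, the 15 largest differences from the nearer pallial array leaving out predicted, anonymous, RIKEN clone and pseudogene names, up to 6 counted members of each of 22 lists, a set of anchor genes such as Dlx1, Gad1 and Tbr1 whatever their result, the 3 genes nearest the threshold on each side, and up to 8 counted genes called in the cultures in each fit; other members were named after their values were seen. Some genes that this rule names are not reported here. The members and lists were chosen with earlier results of these data known. Alternatives were other scalings, background correction with normexp (offset 50; from mean signals, or median signals in the culture files), other filters, thresholds and probe rules, each pallial array alone, and each culture array left out. With 1 array per tissue the number of arrays limits the precision.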

Additional observations from a re-analysis of the deposited data

How the results depend on the processing

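The 1325 higher and 599 lower genes of the ventral comparison became 584 and 153 after normexp, 782 and 227 among genes well above background on all 3 arrays, 589 and 62 at a threshold of 2 log2 units and 2412 and 2249 at 0.5. Against cortex alone there were 2014 and 1799, and against hippocampus alone 2021 and 2083. The lower count was 266 in the authors' deposited table, 273 with dim values set to the lowest well-measured signal and 1099 against the pallial mean. Median and quantile scaling, the mean of the probes of a gene and no filter on dim probes kept both counts within 1.5 times. None of the 744 values recomputed for the 124 named genes turned the direction of a counted gene. These values came from the same arrays, and counted genes had been chosen for a large difference, so this is no independent check. The 8 higher genes of the medial list became 5 after normexp, and the caudal eminence median ran from -0.13 to 0.10 over the settings. The 3 culture calls became 77 with the replicate block, which pairs the arrays by slide, 5 with median and 11 with quantile scaling, and 0 with the mean of the probes, with no filter on dim probes or with only the 4 arrays compared. Leaving out 1 culture array gave 0 to 0 calls without the block, the lone array being assumed to vary like the other groups; 1199 to 3206 genes then had an unadjusted limma p under 0.05. In fits with the block chosen after seeing the data, the 77 calls became 101 (quantile), 427 (normexp) and 195 (deposited table), and 0 to 110 with 1 array left out. The causes of these shifts were not tested. Signal over background limits the lower genes, of which 372 of 599 were not well above background on the ventral array.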
